A study of Mus musculus with 30 samples.

Results

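Among 15 RNA extracts of mammary carcinomas from Myc transgenic mice, 3 stood far above the others in Fgfr2, the gene of fibroblast growth factor receptor 2. These are extracts 548-A, 579-D and 597-B, and they are called Fgfr2-high here. They were chosen by the Fgfr2 probe alone: its log2 ratio to the reference RNA exceeded 5 in these 3 extracts and was under 2 in the other 12. All other genes were then compared between the 3 Fgfr2-high and the 12 other extracts. Each extract was hybridised on 2 two-channel arrays with the channels exchanged, against 1 reference RNA common to all 30 arrays, so the Fgfr2-high extracts rest on 6 arrays and the others on 24.

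Every extract is total RNA of a mouse (Mus musculus) carcinoma with a Myc transgene, and no extract of a carcinoma without the transgene is in the comparison. Not given in the sources used here are the promoter that drives the transgene, the strain, age and treatment of the mice, and the source of the reference RNA. The 6 Fgfr2-high arrays are labelled as work on the epithelial to mesenchymal transition, the conversion of epithelial into motile cells. Extracts 550-A and 561-B, both among the others, are labelled as tumour progression on both arrays, and 595-A on 1 array. An extract code joins a number and a letter whose meaning is not given; 579-D shares its number with 4 of the other extracts. Whether the extracts stem from different animals is not stated either; a p-value here therefore reflects how these extracts vary, and part of that may be technical. Since these are bulk extracts, fewer cells of a type and less RNA per cell cannot be told apart.

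Fgfr2 is a receptor tyrosine kinase that binds fibroblast growth factors (FGFs) together with heparan sulfate. Its activation runs through adaptor proteins to the Ras and MAP kinase cascade, which induces transcription factors such as Etv4 and Etv5 and feedback inhibitors such as Spry2 and Dusp6. In the mammary gland the receptor is made mainly by epithelium and takes part in the budding and branching of the ducts, and alternative splicing sets which FGFs it binds. The probe does not tell splice forms apart.

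The stretch of DNA around the start of Fgfr2 is shown because this gene sets the groups and because the extracts share a Myc transgene. It comes from RefSeq, build GRCm38.p6, chr7:130266759-130267058 on the minus strand, and holds 250 bases before and 50 after the start of the gene. Capitals mark CACGTG, the E-box letters that Myc and other factors of its class can bind.
Fgfr2: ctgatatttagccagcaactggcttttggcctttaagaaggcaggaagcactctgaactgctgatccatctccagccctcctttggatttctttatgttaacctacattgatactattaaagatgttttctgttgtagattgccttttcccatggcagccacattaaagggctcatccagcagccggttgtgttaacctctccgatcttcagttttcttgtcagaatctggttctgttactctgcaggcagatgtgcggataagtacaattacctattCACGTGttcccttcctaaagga
The E-box letters begin at position 279 of 300, counted from the 5′ end of the window. The same letters occur in 7.15% of the 32851 mouse windows of 300 bases in that table. The other motifs searched on both strands, TATAAA (in 13.6% of windows) and TTCNNNGAA (in 8.3%), have no match in the Fgfr2 window. A match is a description of the sequence, and whether any factor binds there was not measured.

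Values are log2 ratios to the reference. The labels do not say which channel was divided by which. Arrays with the extract in channel 2 were turned in sign and the others kept, and no array was turned by its own Myc value. The direction of all ratios together was judged by Myc, which was then positive in every extract, between 2.38 and 3.68. Since the mice carry a Myc transgene this side is likely extract above reference, which is a basis and not proof. Higher and lower are used on this footing, and every direction would flip with the opposite sign. A positive ratio says nothing of how abundant a transcript is, and ratios of different genes are not set against each other.

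Arrays held from 13434 to 21991 measured values of 22800 probes, and 548-A, with 16587 and 13434, was thin: 3000 of the tested probes rest on 1 of its arrays. Among the other extracts 546-A was the thinnest, with 4021 such probes. Paired arrays of 1 extract correlated over probes, after turning, at r = 0.163 for 548-A, 0.359 for 579-D and 0.047 for 597-B, against -0.039 (579-F) to 0.472 (567-B) among the others. Array medians differed from each other. As deposited, the median difference over all 9918 genes tested was -0.21, and with each array's median subtracted it was 0.03, so list medians are given both ways.

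Fgfr2 measured 7.13 in 548-A, 5.93 in 579-D and 6.99 in 597-B. The paired arrays were close for these extracts, at 7.11 and 7.16 in 548-A, 5.88 and 5.99 in 579-D, and 6.79 and 7.19 in 597-B. The other 12 extracts ran from -2.62 (579-A) to 0.91 (550-A) with a median of -0.70. The extract just inside the threshold is thus 579-D at 5.93 and the one just outside is 550-A at 0.91, with no extract between them. The group means were 6.69 ± 0.65 (SD, n = 3) and -0.69 ± 1.03 (SD, n = 12). These values chose the groups and carry no test. A single Fgfr2 probe was in the table, and 34.5% of its values equalled a ratio of small whole numbers, against a median of 16.7% over genes.

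All 3 Fgfr2-high extracts were also high in Car6, the gene of a secreted carbonic anhydrase of saliva and milk, with ratios of 8.11 (548-A), 6.90 (579-D) and 7.47 (597-B). Car6 exceeded 3 in 8 of the 15 extracts, and the 5 others of these were 540-B, 546-B, 561-B, 579-E and 579-F. The highest of them, 579-E, reached 7.20 for Car6 with Fgfr2 at -0.16. Extracts with high Car6 therefore occurred both with and without high Fgfr2, and none of the 15 had high Fgfr2 without high Car6.

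**Figure D1:**
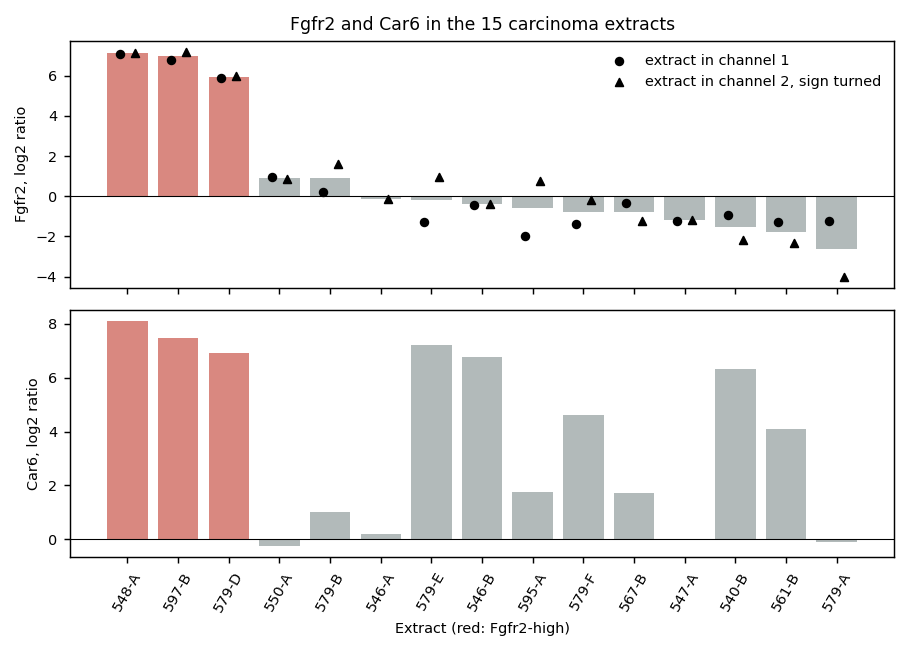
Log2 ratio to the reference of Fgfr2 (top) and Car6 (bottom) in each of the 15 extracts, ordered by Fgfr2. Bars are the mean of the paired arrays, points in the top panel the single arrays, and red marks the Fgfr2-high extracts, which lie between 5.93 and 7.13 for Fgfr2 while the other extracts stay at or below 0.91.

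Across the array, 27 of 12887 probes passed an adjusted p under 0.05 between the groups (0.21%; limma with Benjamini-Hochberg adjustment over all probes but Fgfr2's own), 3 of them higher (0.0233%) and 24 lower (0.186%) in the Fgfr2-high extracts. Taken with 1 probe per gene, 20 of 9918 genes passed (0.202%), 2 higher (0.0202%) and 18 lower (0.181%). Those that rose are Slc12a2 and Lpo, both in the list of gland genes, and those that fell are led by the acute phase genes Saa2 and Cp, the giant scaffold protein gene Ahnak and the keratin gene Krt19. With array medians subtracted 16 probes passed (0.124%), 8 higher and 8 lower (0.0621% each), so the share of higher calls was 50.0% in place of 11.1%, and 10 probes passed in both. Without 548-A 1 probe passed, without 579-D 4, and without 597-B 80. Within the 8 Car6-high extracts alone 0 of 12887 probes passed with limma (0.0%), where 1420 (11.0%) had an unadjusted p under 0.05.

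Slc12a2 encodes NKCC1, the sodium, potassium and chloride cotransporter that loads secretory epithelial cells with chloride. It measured 2.30 in 548-A, 3.19 in 579-D and 2.73 in 597-B, against values between 0.27 (579-F) and 1.37 (595-A) in the others, whose median was 0.76. The groups did not overlap. The difference was 2.04 ± 0.25 (SE, 3 against 12 extracts), a 4.11-fold change in ratio, with an adjusted p of 0.00447 by limma. The call held without any 1 of the 15 extracts, with the highest adjusted p at 0.0457 without 579-D. It was lost with the channel-1 arrays alone (adjusted p = 0.0799) and within the Car6-high extracts (adjusted p = 0.204), where the difference was 2.12 and the 5 others lay between 0.27 and 0.88.

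Lpo encodes lactoperoxidase, an antibacterial peroxidase of milk, saliva and tears. It measured 4.14 in 548-A, 6.16 in 579-D and 4.05 in 597-B, against 0.19 (550-A) to 3.08 (547-A) with a median of 2.02 in the others. All 3 values lay above the other 12. The difference was 2.79 ± 0.55, with an adjusted p of 0.0498 by limma. That call is at the edge: it was lost without 548-A (adjusted p = 0.131) and without 579-D (0.242), and 7 of 27 alternative settings kept it.

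Only 2 genes passed on the higher side, so the 10 largest differences among the 20 genes whose Fgfr2-high extracts all lay above the other 12 (0.202% of genes tested) are described, and 8 of these did not pass. They were chosen for groups that do not overlap. Tesc, the gene of the calcium-binding protein tescalcin, had the largest difference, 3.32 ± 0.71 with an adjusted p of 0.0649 by limma (0.044 with array medians subtracted). It measured 3.18 in 548-A, 4.07 in 579-D and 3.81 in 597-B, against -0.998 to 2.75 in the others. The highest of the others was 579-E, which is Car6-high.

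Deptor, an inhibitor of the mTOR kinase, measured 3.27, 3.56 and 3.63 in 548-A, 579-D and 597-B, and 0.02 to 2.81 in the others. Its difference was 1.98 ± 0.55 (adjusted p = 0.161 by limma), and a further Deptor probe gave 2.17. Within the Car6-high extracts the Deptor difference was 1.33, and the others there lay between 1.47 and 2.68. Nr4a1, a nuclear receptor induced early by growth factors, differed by 1.90 ± 0.51 (adjusted p = 0.144 by limma), with 1.44, 2.26 and 1.89 in the Fgfr2-high extracts and at most 1.16 elsewhere. Chn2, which encodes a chimaerin that turns off the GTPase Rac, differed by 1.40 ± 0.32, and Ehd3, of the endocytic recycling machinery, by 1.26 ± 0.31. Their adjusted p were 0.0874 and 0.111 by limma. The highest of the others for Ehd3, 579-E at 2.12, all but touched the lowest Fgfr2-high extract, 548-A at 2.12.

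The remaining genes of these 10 are Actl9, an actin-like gene known from testis, at a difference of 2.11, the uncharacterised 4930444F02Rik at 1.56, and Lrrc2, which encodes a leucine-rich repeat protein, at 1.36. None of these passed, and each rests on 1 of the arrays of 548-A. Between 33.3% and 48.0% of their values equalled ratios of small whole numbers, above the gene median.

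On the lower side 18 genes passed with separate groups, where 186 genes (1.88%) had separate groups in all; the 15 largest are described. Saa2 fell most. Saa2 encodes serum amyloid A2, a lipoprotein-bound protein that liver and epithelia release in inflammation. It measured -5.20 in 548-A, -4.41 in 579-D and -2.62 in 597-B, against -2.02 (546-B) to 1.13 (579-A) with a median of 0.06 in the others. Here 597-B was the closest to the others, though still below all of them. The difference was -3.99 ± 0.59, 15.8-fold, with an adjusted p of 0.0143 by limma.

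Saa1, its neighbour and close copy, measured -1.71, 0.01 and 0.69 in the 3 extracts, and -1.24 to 7.80 with a median of 4.93 in the others, so that the groups overlapped. Its difference was -4.91 ± 1.69 with an adjusted p of 0.244 by limma. The start regions of both genes are printed to show how alike the copies are; they come from RefSeq, build GRCm38.p6, chr7:46742931-46743230 on the minus strand for Saa1 and chr7:46751583-46751882 on the plus strand for Saa2. Capitals mark the 13 bases of each that find no identical partner in a global alignment.
Saa1: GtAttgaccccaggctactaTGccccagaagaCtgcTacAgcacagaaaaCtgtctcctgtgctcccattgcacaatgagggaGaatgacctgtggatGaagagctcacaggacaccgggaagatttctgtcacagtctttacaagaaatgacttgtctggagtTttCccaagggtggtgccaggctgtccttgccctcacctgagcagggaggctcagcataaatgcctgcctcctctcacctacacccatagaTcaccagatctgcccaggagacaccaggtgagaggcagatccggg
Saa2: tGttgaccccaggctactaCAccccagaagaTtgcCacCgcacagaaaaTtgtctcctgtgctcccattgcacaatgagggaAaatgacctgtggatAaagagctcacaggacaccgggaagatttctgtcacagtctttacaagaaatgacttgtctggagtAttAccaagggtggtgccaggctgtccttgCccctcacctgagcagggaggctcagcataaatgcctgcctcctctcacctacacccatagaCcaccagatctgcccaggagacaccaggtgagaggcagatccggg
The windows are identical at 287 of 300 positions (95.7%), and neither holds any of the 3 motifs searched above. How far each probe reads only its own gene was not tested, so the values of Saa1 and Saa2 are uncertain as to which copy they report.

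Cp encodes ceruloplasmin, the copper-carrying ferroxidase of plasma that rises in inflammation. It measured -3.54 in 548-A, -2.89 in 579-D and -2.07 in 597-B, against -1.70 to 1.74 with a median of 0.78 in the others. The groups were separate by a small margin, set by 546-B. Its difference was -3.32 ± 0.52 with an adjusted p of 0.0143 by limma. In the acute phase list 14 of 17 genes were measured, Saa2 and Cp passed, 4 had an unadjusted p under 0.05 on the lower side and 0 on the higher side, where 10.8% and 2.1% of all genes did. The list median was -1.01 as deposited and -0.82 with array medians subtracted. Hp, the gene of haptoglobin, was among the 4 at -3.06 ± 0.83. The mean of the list was -0.07 in 548-A, -0.65 in 579-D and 0.21 in 597-B, below all others (0.59 to 2.19).

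Krt19, a keratin of simple and ductal epithelium, measured -1.49 in 548-A, -1.77 in 579-D and -0.53 in 597-B, against 0.36 (546-B) to 2.59 (595-A) in the others. All Fgfr2-high extracts lay below 0 and all others above it. The difference was -2.93 ± 0.45 with an adjusted p of 0.0143 by limma. Of the epithelial list 25 of 30 genes were measured, and Krt19 passed. An unadjusted p under 0.05 was reached by 5, all lower (10.8% of all genes), among them Krt7 at -2.06, the claudin gene Cldn4 at -1.61 and the junction gene Tjp1 at -0.90. Tjp1 was low in 548-A alone (-1.86), with -0.27 in 579-D and 0.07 in 597-B inside the -0.30 to 0.78 of the others. Other defining epithelial genes gave differences near 0, with their intervals: Epcam, the epithelial adhesion molecule, at -0.07 (95% interval -0.63 to 0.49), the keratin gene Krt18 at -0.13 (-0.63 to 0.37), and Cdh1, the gene of E-cadherin, at 0.05 with a wide interval of -1.78 to 1.87. Epcam measured 2.56, 2.61 and 3.36 in the 3 extracts and 2.17 to 3.44 in the others, so the epithelial marker was on the Myc side in all 15. The list median was -0.18 as deposited and -0.01 after centring.

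Lipa, the lysosomal acid lipase, fell by 2.42 on the log2 scale (SE 0.39, adjusted p = 0.0178 by limma), and Trip6, a LIM-domain protein of focal adhesions, fell by 2.25 (SE 0.34, adjusted p = 0.0143). Saa2, Cp, Krt19, Lipa and Trip6 are the 5 of the 15 described genes with lower values that also passed with array medians subtracted. Ahnak measured -7.57, -6.08 and -5.05 against -4.46 to -1.65, a difference of -2.98 ± 0.57 (adjusted p = 0.0498 by limma), while its 3 other probes differed by -2.50 to -0.51. Anxa1, the gene of annexin A1, a phospholipid-binding protein that dampens inflammation, measured -2.83, -3.58 and -2.75 against -2.15 to 0.67 in the others.

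The rest of the 15 group by known roles. Pmepa1, a feedback inhibitor of TGF-beta signalling that TGF-beta itself induces, fell by 2.11 on the log2 scale and was the 1 of the 15 in which the Fgfr2-high extracts stayed above 0, with 1.21 in 548-A, 0.08 in 579-D and 1.37 in 597-B. The transcription factor gene Runx1 fell by 1.70 in 1 probe, and its other probe differed by -0.05. Angptl4, an inhibitor of lipoprotein lipase, fell by 1.70 and Pla2g7, a phospholipase that breaks down platelet-activating factor and is made by macrophages, by 1.84. Cd59a, which shields cells from complement, fell by 1.73, and its 3 Fgfr2-high values lay close together, from -0.44 to -0.23. Man2a2, a mannosidase of the Golgi, fell by 2.02, Prcp, a lysosomal carboxypeptidase, by 1.62, and Spaca6, known for its role in sperm, by 2.28. Evl, a regulator of actin filaments, Impact, a regulator of translation, and the myeloid adaptor gene Tyrobp also passed, at -1.52, -1.47 and -1.42; Kitl, Pdzd11 and Tmem176a passed by 1 probe (-2.44, -2.44 and -1.87) but not by the probe that stood for the gene (-0.93, -0.53 and -1.14).

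None of the 24 probes on the lower side passed without 548-A. The range of the count over the 15 sets that leave out 1 extract was 0 to 77, the highest without 597-B. Of the 15 genes, Saa2 passed in 23 of 27 alternative settings and Cp, Krt19 and Trip6 in 21, while Prcp passed in 3, Ahnak and Pmepa1 in 8 and Cd59a in 9 of 26.

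**Figure D2:**
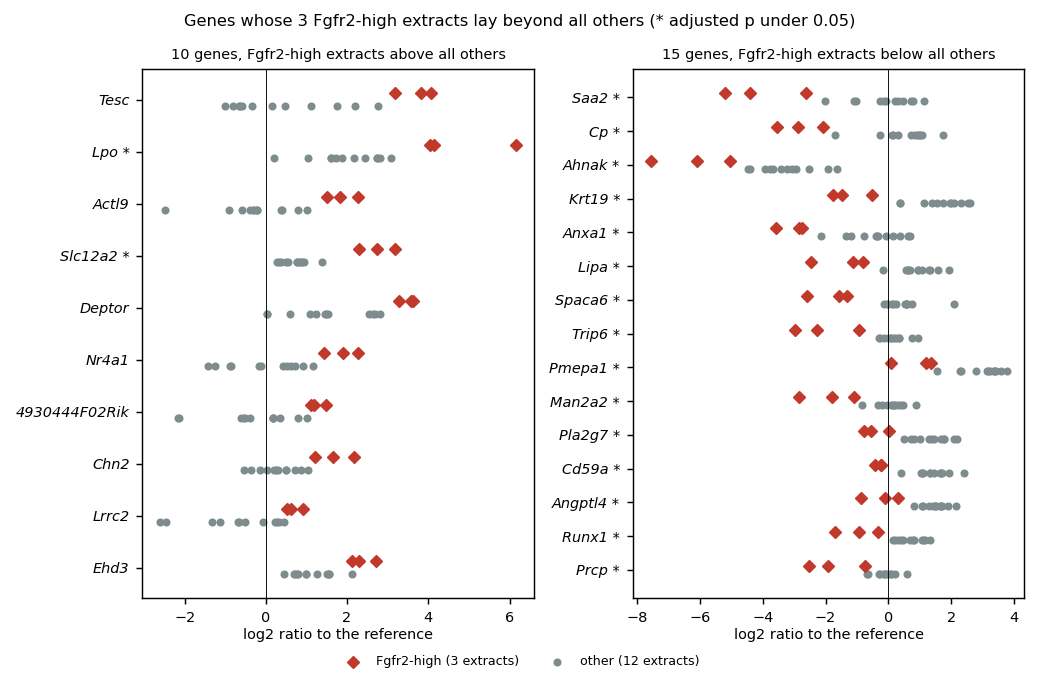
Log2 ratio to the reference in the Fgfr2-high extracts (red diamonds) and the other extracts (grey points) for the 10 described genes with higher and the 15 with lower values, chosen because the groups do not overlap. Stars mark an adjusted p under 0.05: Slc12a2 and Lpo on the left, and all 15 on the right.

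Among the FGF ligands, 14 of 22 genes were measured, 0 passed, and 2 had an unadjusted p under 0.05, Fgf8 at -0.73 and Fgf16 at -0.97, a share near the 10.8% of all genes that were lower at that threshold. The list median was -0.35 as deposited and -0.13 after centring, against -0.21 and 0.03 for all genes. Fgf10, a ligand from mammary stroma that binds the epithelial form of Fgfr2, measured -0.37 in 548-A, -1.18 in 579-D and -0.01 in 597-B, within the -5.36 to 0.07 of the others. Fgf7, the other main ligand of that form, was not among the genes tested.

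Of the receptors and co-receptors other than Fgfr2, 12 of 20 were measured and 0 passed, with a median of -0.40 (-0.17 after centring). Fgfr1, the receptor found chiefly in mesenchyme, measured 1.02, -1.41 and 0.10 in 548-A, 579-D and 597-B, inside the -1.72 to 4.52 of the others, and its difference was -0.66 with a 95% interval of -2.60 to 1.28. The interval is wide, so neither a rise nor a fall can be set aside. Fgfr3 and Fgfr4 were not among the genes tested. Fgfbp3, which encodes a carrier that frees FGFs from matrix, was the 1 of the 12 with an unadjusted p under 0.05, at -0.86. Among all genes 10.8% were lower at that threshold. Fgfbp3 measured -2.115 in 548-A, on 1 of its arrays. It measured -0.23 in 579-D and -0.35 in 597-B, within the -0.70 to 1.26 of the others, and the difference was -0.25 without 548-A.

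In the chain from receptor to MAP kinase 17 of 25 genes were measured and 0 passed. The median was -0.42, or -0.21 after centring. Nras, a Ras GTPase, had the smallest p at -0.95 ± 0.24 (adjusted p = 0.124 by limma), and Sos1, the exchange factor that loads Ras, lay at -0.92 with 548-A at -2.77 as the lowest extract. The adaptor genes Grb2, Gab1 and Shc1 differed by 0.20, -0.29 and -0.50.

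The output and feedback genes of FGF and MAP kinase signalling, 16 of 24 measured, gave 0 calls. Their median difference was 0.37 as deposited and 0.57 after centring, and 12 of 16 lay above 0. With an unadjusted p under 0.05 were 3 higher and 1 lower, where 2.1% and 10.8% of all genes reached that threshold. The median difference was 0.60 without 548-A and 0.25 without 597-B. The mean of the list was -0.29 in 548-A, 0.19 in 579-D and 0.40 in 597-B. In the others it ran from -1.275 (547-A) to 0.81 (546-A) with a median of -0.345, so the groups overlapped. Etv1, a transcription factor of the PEA3 class, measured 0.67 in 548-A, 2.07 in 579-D and 1.67 in 597-B, against -2.17 to 1.34 in the others. The difference was 2.16 ± 0.60 with an adjusted p of 0.158 by limma. Dusp6, the phosphatase that switches off ERK, measured 0.59, 1.31 and 0.24, a difference of 1.77 ± 0.79 (adjusted p = 0.376 by limma). Among the others 546-A reached 1.48 and 550-A 1.31. Phlda1, a target of growth factor signalling, differed by 1.58 ± 0.60.

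The relatives Etv4 and Etv5 differed by 0.66 ± 0.44 and 1.33 ± 0.83. Spry2, an inhibitor of receptor signalling, measured 0.45, 0.36 and 0.50, close together, while the others ran from -1.77 to 0.81. Its difference was 0.89 with a 95% interval of -0.18 to 1.97. Egr1, an early transcription factor that MAP kinases induce, lay the other way at -1.17 ± 0.35 (adjusted p = 0.189 by limma), with -3.48 in 548-A, -2.55 in 579-D and -2.03 in 597-B. Ccnd1, the gene of cyclin D1, differed by 0.05, and Myc by 0.03 with a 95% interval of -0.54 to 0.61. Spry4 was not among the genes tested. In the plot of these genes the thin extract 546-A also stands high for Dusp6, Etv5 and Spred1. It is not alone: Dusp6 measured 1.31 in 550-A, and Etv5 measured 1.86 in 540-B and 1.56 in 546-B.

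**Figure D3:**
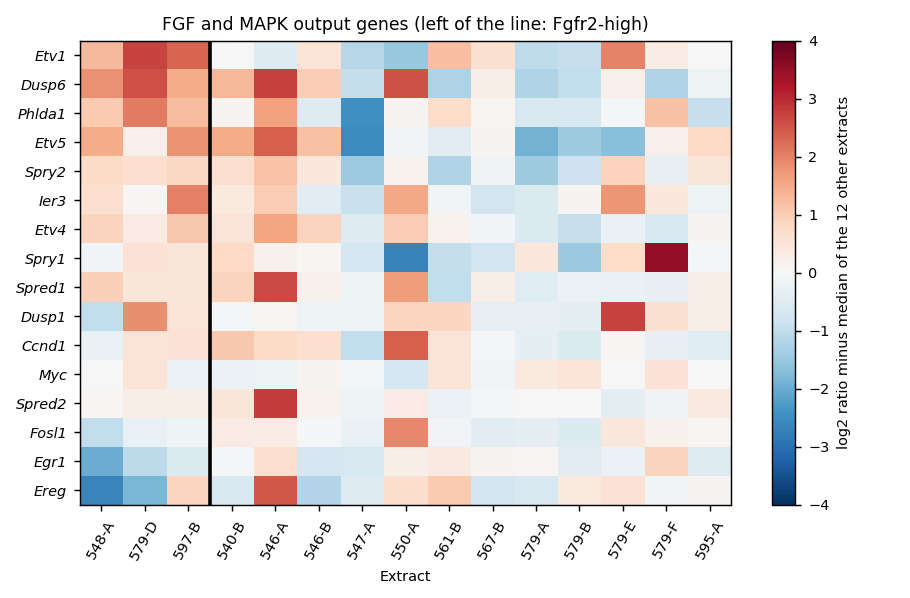
Colour gives the log2 ratio minus the median of the 12 other extracts for the 16 measured output and feedback genes of FGF and MAP kinase signalling, 1 row per gene in order of the group difference, from Etv1 (2.16) to Ereg (-1.33), and 1 column per extract. The 3 Fgfr2-high extracts are left of the line; Etv1, Dusp6 and Phlda1 are red in all 3, Egr1 is blue in all 3, and none of the 16 passed.

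Other receptor tyrosine kinases, 16 of 20 measured, gave 0 calls and a median of -0.32 (-0.08 after centring). Erbb4, a neuregulin receptor of alveolar cells, differed by 0.83 ± 0.34 with 579-D alone high at 2.30, above the 1.16 of the highest other extract. Erbb2 measured 0.57, 1.29 and 0.55 and differed by -0.08. Pdgfrb, a receptor of fibroblasts and pericytes, had the smallest p of the list at -1.39 ± 0.33 (adjusted p = 0.0989 by limma), with the groups separate. Of the factors that splice Fgfr2 or similar transcripts, 9 of 11 were measured and 0 passed (median -0.34, or -0.08 after centring). Esrp2, which promotes the epithelial splice form, measured 2.40, 2.74 and 2.84 against 1.87 to 3.99, and Esrp1 was not among the genes tested.

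The nearest measured genes on the chromosome were compared to see whether they go with Fgfr2. On each side 10 genes were taken in the order of the RefSeq table. Of the 20, 0 passed, where 0.202% of all genes did. An unadjusted p under 0.05 was reached by 2, Tgfb1i1 at -1.27 and Htra1 at -0.57, against 12.9% of all genes in either direction. Tgfb1i1 measured -4.58 in 548-A but -1.27 and -1.21 in 579-D and 597-B, and its difference was -0.16 without 548-A. The immediate neighbours in this order, Wdr11 and Ate1, differed by -0.10 (95% interval -0.68 to 0.48) and -0.13 (-0.71 to 0.45). Wdr11 split the Fgfr2-high extracts, with -0.34 in 548-A, -0.41 in 579-D and 0.93 in 597-B, against -0.30 to 0.57 in the others. Ate1 measured -0.76, -0.50 and 0.18 in the same order, within the -0.90 to 0.36 of the others. The median of the 20 was -0.15 (0.08 after centring), the range -1.27 to 1.08, and in 0 of them were the groups separate. Over all genes the groups were separate in 0.202% as higher and 1.88% as lower. Cuzd1, the highest of the 20, measured 2.66 in 548-A but 0.64 and 0.65 in 579-D and 597-B. These values are of RNA, and copy number was not measured.

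**Figure D4:**
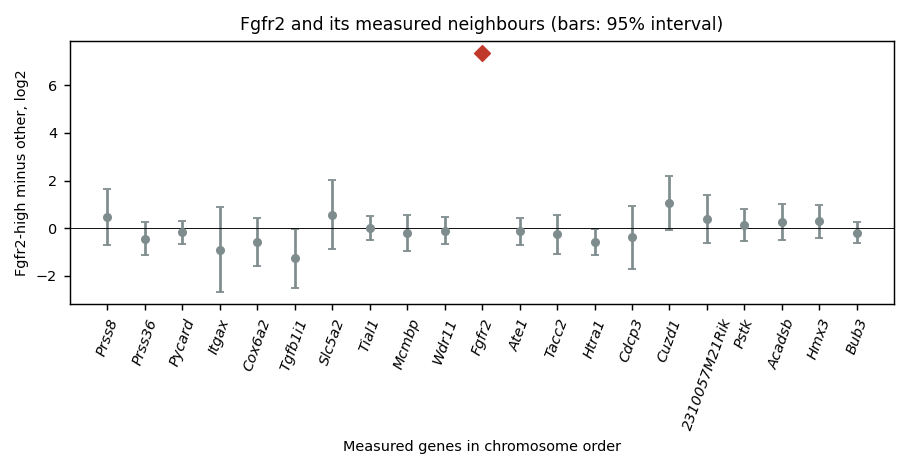
Difference in log2 ratio between Fgfr2-high and other extracts for Fgfr2 (red, no error shown because it chose the groups) and for the 10 nearest measured genes on each side in chromosome order, evenly spaced and not to scale. Bars are 95% intervals from limma; the 20 neighbours lie between -1.27 (Tgfb1i1) and 1.08 (Cuzd1).

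Of the list of salivary, lacrimal and airway gland genes 15 of 30 were measured; Slc12a2 and Lpo passed (0.0202% of all genes passed as higher), 5 had an unadjusted p under 0.05 on the higher side and 1 on the lower (2.1% and 10.8% of all genes). Car6 differed by 4.72 ± 1.53, Dio1, an enzyme that activates thyroid hormone, by 4.45 ± 1.37, and Scgb1b27, a secretoglobin of gland secretions, by 2.97 ± 1.23; these did not pass. Dio1 measured 7.27, 6.98 and 5.21, and among the others reached 5.77 in 579-E and 5.49 in 546-B. Within the Car6-high extracts, a set that Car6 itself defines, Dio1 differed by 1.68 and Car6 by 1.70. The 5 others there lay between 3.64 and 5.77 for Dio1, and between 4.11 and 7.20 for Car6. Ltf, the gene of lactoferrin, an iron-binding protein of milk, went the other way at -3.28 ± 1.05. It split the Fgfr2-high extracts, with -1.70 in 548-A, 3.85 in 579-D and 1.31 in 597-B, against 2.82 to 7.41 in the others. Without 548-A the Ltf difference was -1.85. The list median was 0.09 (0.32 after centring), and it ran from -0.35 without 597-B to 0.72 without 548-A, so its sign rests on single extracts. Inside the Car6-high set the list median difference was -0.08, against -0.30 for all genes. Slc12a2 and Lpo still differed by 2.12 and 2.485 there. The highest list mean of all extracts, 2.72, was that of 579-E, which is not Fgfr2-high. List means of the Fgfr2-high extracts went from 1.22 (548-A) to 2.62 (579-D), and the median of the others was 1.12. The groups thus overlapped.

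Interferon-inducible genes, 27 of 35 measured, gave 0 calls. At an unadjusted p under 0.05 were 7 higher and 0 lower, where 2.1% and 10.8% of all genes reached that threshold. The median was 0.79 (1.07 after centring), with 24 of 27 above 0. Igtp, a GTPase against intracellular pathogens, measured 2.09 in 548-A, 5.33 in 579-D and 3.46 in 597-B, a difference of 3.44 ± 1.00 (adjusted p = 0.178 by limma). Iigp1, of the same family, differed by 2.13 ± 0.69 and the immunoproteasome subunit gene Psmb9 by 1.45 ± 0.39. The mean of the list was 0.28 in 548-A, 2.11 in 579-D and 1.17 in 597-B, with a median of -0.09 in the others and 3.33 in 546-A, the highest of all extracts. High interferon genes were thus found outside the Fgfr2-high extracts, though 546-A is thin and not Car6-high. The other Car6-high extracts had list means of -0.58 (540-B), -0.53 (546-B), 0.10 (561-B), -0.26 (579-E) and -0.075 (579-F). Within the Car6-high extracts the list median difference was 1.56, against -0.30 for all genes. Without 579-D the list median over all extracts was 0.27. For MHC class II 3 of 7 genes were measured, 0 passed and the median was 0.84 (1.10 after centring), which was 0.27 without 579-D and 1.40 without 548-A.

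Milk and alveolar genes, 14 of 20 measured, gave 0 calls, with 5 lower and 0 higher at an unadjusted p under 0.05 (10.8% and 2.1% of all genes) and a median of -0.93 (-0.71 after centring). Csn2, the gene of beta-casein, measured 1.76, 0.60 and 3.10 against a median of 7.03 in the others, which ran from -0.04 to 9.29. Its difference of -4.19 ± 1.65 did not pass (adjusted p = 0.318 by limma). Mfge8, a milk fat globule protein, measured 0.62, -0.41 and 0.24 against 1.21 to 3.66, a difference of -1.99 ± 0.44 (adjusted p = 0.0747), and Plin2, which coats lipid droplets, measured 0.86, 0.74 and 0.67 against 1.62 to 3.46, a difference of -1.62 ± 0.37 (0.0874, both by limma). In both genes the groups were separate. Trf, the gene of the iron carrier transferrin, split the Fgfr2-high extracts among themselves, with 10.25 in 548-A, 4.58 in 579-D and 6.58 in 597-B.

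Hormone-sensing luminal genes (7 of 14 measured) gave 0 calls and a median of -0.38 (-0.15 after centring); Xbp1, a factor of secretory cells, was the 1 gene with an unadjusted p under 0.05, at 0.84. Basal and myoepithelial genes (11 of 16) gave 0 calls and a median of -0.90 (-0.67), with 5 lower at that threshold (10.8% of all genes), among them the contractile genes Myh11 at -0.94 and Tagln at -1.73. Squamous and skin genes (12 of 20) gave 0 calls and a median of -0.18 (0.05).

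Fibroblast and matrix genes, 19 of 24 measured, gave 0 calls. An unadjusted p under 0.05 was reached by 11, all lower, against 10.8% of all genes, and the median was -1.60 (-1.31 after centring). Dcn, the proteoglycan decorin, measured -3.63, -3.86 and -3.80 in 548-A, 579-D and 597-B against -3.27 to -0.22, a difference of -2.25 ± 0.54 (adjusted p = 0.0989 by limma). The collagen genes Col1a1, Col1a2 and Col3a1 differed by -1.94, -2.02 and -2.46, and each had other extracts within the Fgfr2-high range. The mean of the list was -1.94, -2.54 and -1.52 in the 3 extracts, and from -1.83 (595-A) to 1.22 (546-A) with a median of -0.57 in the others, so the groups overlapped. The part of these levels in the other results was not tested.

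In the mesenchymal list 29 of 31 genes were measured and 0 passed, with 15 lower and 1 higher at an unadjusted p under 0.05 (10.8% and 2.1% of all genes) and a median of -1.15 (-0.90 after centring). The mean of the list was -2.16 in 548-A, -2.35 in 579-D and -1.665 in 597-B. In the others it ran from -1.86 (567-B) to 0.20 (546-A), so the groups overlapped. Vim, the intermediate filament of mesenchymal cells, measured -4.07, -4.50 and -3.84 against -3.86 to -1.35, a difference of -1.15 ± 0.48 (adjusted p = 0.352 by limma). Snai2, a repressor of epithelial genes, differed by -1.19 ± 0.34, and Cdh2, the gene of N-cadherin, by -1.47 ± 0.55. The 1 gene on the higher side was the transcription factor gene Foxc2 at 1.49, where 548-A measured 1.59 and the other Fgfr2-high extracts -0.02 and -1.05.

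Of 21 macrophage and myeloid genes 18 were measured; Tyrobp passed (0.181% of all genes passed as lower) and 12 had an unadjusted p under 0.05, all lower (10.8% of all genes), with a median of -1.06 (-0.82 after centring). Tyrobp measured -0.18, -0.17 and 0.25 against 0.85 to 2.17, a difference of -1.42 ± 0.28 (adjusted p = 0.0498 by limma). Mpeg1, the gene of a pore-forming protein of macrophages, differed by -1.69 ± 0.41, the lysozyme gene Lyz2 by -1.47 ± 0.38 and Apoe, an apolipoprotein that macrophages make, by -1.32 ± 0.35. The mean of the list was 0.39, 0.05 and 0.54 in the 3 Fgfr2-high extracts and from 0.58 (579-F) to 1.97 (546-A) in the others, separate by a small margin. No defining gene of this list can be called absent, since a ratio has no zero level. Like the genes that fell, Pla2g7 and Lipa among them, these markers were lower in the Fgfr2-high extracts as a group. Whether they go together from extract to extract was not tested, nor was the part of the marker levels in those results.

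The other cell type lists gave 0 calls. Endothelial genes (8 of 14 measured) had a median of -0.34 (-0.06 after centring), lymphocyte genes (10 of 18) -0.51 (-0.26), adipocyte genes (12 of 17) -0.66 (-0.43), skeletal muscle genes (11 of 17) -0.83 (-0.52) and erythroid genes (2 of 9) -0.73 (-0.50). In the fat cell list Fabp4, a fatty acid carrier, measured -2.22 in 548-A but 1.24 and 0.97 in 579-D and 597-B. For lymphocyte genes too 548-A was the lowest extract, with a list mean of -1.33.

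Lists of growth and stress genes gave 0 calls. Myc target and nucleolar genes (27 of 30 measured) had 0 calls and a median of -0.11 (0.12 after centring), ribosomal protein genes (36 of 44) 0 calls and 0.08 (0.31), and cell cycle genes (29 of 34) 0 calls and -0.01 (0.22). Bop1, which takes part in ribosome assembly, had the smallest p among the Myc targets at -1.65 ± 0.40 (adjusted p = 0.106 by limma). Hypoxia and glycolysis genes (15 of 19) had 0 calls and a median of -0.28 (-0.05), immediate early and heat shock genes (13 of 16) 0 calls and -0.41 (-0.09), and Wnt pathway genes (18 of 35) 0 calls and -0.32 (-0.13).

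**Figure D5:**
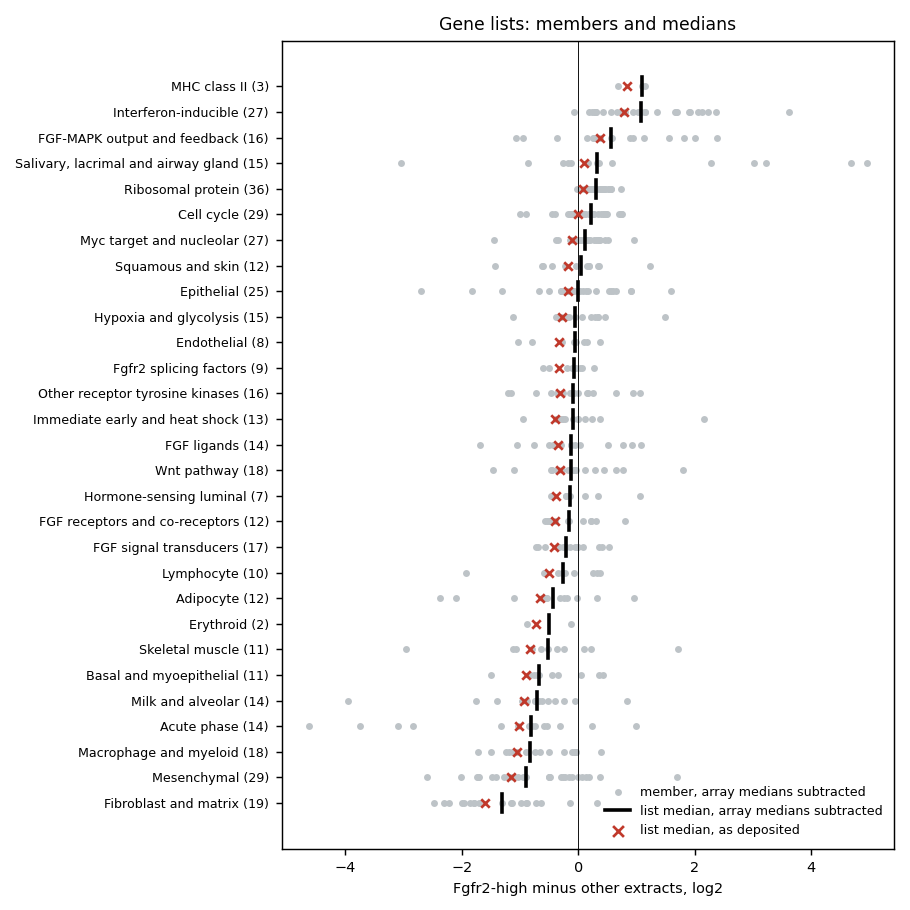
Difference in log2 ratio between Fgfr2-high and other extracts for the members of each gene list with array medians subtracted (grey points), with the list median after centring (black bar) and as deposited (red cross); the number of measured genes stands beside each name. MHC class II (1.10), interferon-inducible (1.07) and FGF output genes (0.57) lie on the right. Fibroblast (-1.31), mesenchymal (-0.90), macrophage (-0.82) and acute phase (-0.82) genes lie on the left, against 0.03 for all genes.

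The comparison was repeated inside the Car6-high extracts, 3 against 5, because all Fgfr2-high extracts are Car6-high. With 56 ways to split 8 extracts the smallest two-sided p an exact permutation test can give is 0.0179. For 17 genes of interest, which were not picked for separate groups, 0 had an exact p under 0.05. The lowest was 0.0536, reached by Dusp6, Esrp2 and Vim. In this subset the groups were nevertheless separate for Dusp6, at 0.24 or more against at most 0.09. They were also separate for Vim, at -3.84 or less against at least -3.78, but not for Esrp2. The two-sided test also counts splits with as large a mean difference of the opposite sign. The 25 described genes had been chosen for separate groups, which largely fixes their outcome in this subset, so their exact p are not used. Within number 579, extract 579-D lay beyond the 4 other extracts in 25 of these 25 genes, which the choice of genes also fixes.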

How the data were processed

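Values are the log2 ratios the authors deposited for 30 arrays of 15 extracts; that scale was read from the values, with background correction and normalization not given in the sources used here. The value 16.61 (8839 cells) was taken as a placeholder for missing. Arrays with the extract in channel 2 were turned in sign, and the 2 arrays of an extract averaged. Probes with values on at least 24 of 30 arrays and 1 of each extract were tested with limma 3.58.1 in R 4.3.3, 3 against 12 extracts, with Benjamini-Hochberg adjustment over 12887 probes. Fits on arrays of 1 channel also needed values in all 3 Fgfr2-high and at least 8 other extracts. The fit was checked on simulated data. The number of arrays limits the precision.

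A gene's probe is the one with values on most arrays. The 15 largest differences on each side among genes that passed with separate groups were named; where fewer than 5 qualified, the 10 largest with separate groups; also genes of interest, up to 4 per list by p, and the neighbours. Further list members, chosen after their values were seen, are named as examples. Groups, lists and genes were chosen with earlier results of these data known, and motifs and promoters after gene values were seen.

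The exact permutation test inside the Car6-high extracts was planned for the named genes. It was first run on the 25 chosen genes (17 at the smallest p, 21 with an adjusted p under 0.05) and, after that result was seen, moved to 17 genes of interest, since the 25 were picked for separate groups. Probe symbols came from the platform annotation (16874 probes had 1 symbol, 134 had several and stay without a name, and 5792 were unlisted); 16196 of the first are in the RefSeq table of GRCm38.p6.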

Additional observations from a re-analysis of the deposited data

How the results depend on the processing

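The count of probes called, 27 (3 higher, 24 lower), depended on the extracts: leaving out 1 of the 15 gave 1 to 80 calls, 1 to 7 higher and 0 to 77 lower. It was 0 (0 and 0) in the Car6-high extracts, 13 (11 lower) with extract weights, 16 (8 and 8) with array medians subtracted, 3 (1 and 2) with channel-2 arrays, 7 (1 and 6) with the looser filter, 51 (6 and 45) with probes on all 30 arrays, and 259 (47 and 212) on single arrays with a dye term and extract as random block. With channel-1 arrays 1 probe was higher. Without 546-A and 548-A, a setting chosen after seeing the data, it was 14 (8 and 6). The cause was not tested. None of the 18 called genes followed through these settings (all but Evl and Impact) reversed in sign.

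List medians moved by more than the spread with array medians subtracted for FGF signal transducers (-0.21), splicing factors (-0.0788), endothelial (-0.0561), lymphocyte (-0.26), immediate early (-0.0893) and neighbouring genes (0.0777). Over the genes that pass the stricter filter for arrays of 1 channel, channel-1 arrays gave -0.46 for epithelial, -1.71 for acute phase and -0.68 for Wnt genes, and channel-2 arrays gave -0.32 for adipocyte and 0.023 for Wnt genes; without that filter epithelial genes gave -0.56 on channel-1 arrays, and adipocyte genes -0.30 and Wnt genes 0.14 on channel-2 arrays. With probes on all 30 arrays gland genes gave 1.06 and epithelial genes -0.52. Without 546-A and 548-A other receptor tyrosine kinases gave 0.0843 and lymphocyte genes -0.18.

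Leaving out 1 extract gave medians of -0.54 to -0.208 for splicing factors, -0.46 to 0.0322 for squamous, -0.675 to -0.178 for endothelial, -0.724 to -0.0741 for lymphocyte and -0.22 to 0.266 for cell cycle genes. The median also turned sign for gland (-0.35 to 0.72), Myc target (-0.228 to 0.00487) and ribosomal protein genes (-0.0402 to 0.317).

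No paired analysis was possible because the groups share 1 extract number, 579, and no replicate numbers. With the extract number as a random block (correlation -0.0096) 19 probes passed, 2 higher and 17 lower, and 13 of 17 described calls held; with the other extracts averaged to 1 value per number 33 passed. With 3 Fgfr2-high extracts, 1 of them thin, small differences cannot be resolved.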
